A study of Homo sapiens with 4 samples.

Results

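The subunit genes of the SWI/SNF chromatin remodelling complexes were followed in HCT116, an established line of human colon carcinoma cells, that carried a short hairpin RNA against ARID1A (shARID1A) or were control cells (CTR). The 30 genes were taken by symbol from a fixed list of SWI/SNF subunits, and each symbol had 1 row among the 60766 features kept. RNA-seq was available for 2 knockdown and 2 control libraries. The stated aim of the study was to relate ARID1A to immune functions, and its title sets ARID1A beside the corepressor TRIM28, apart from SWI/SNF. The hairpin sequence, its vector, what the control cells carried, and whether the knockdown cells were a clone or a pool are not stated in the labels. Nothing in the labels tells whether the replicates came from separate cultures. The p-values measure the spread between these libraries, which may be technical.

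SWI/SNF complexes use the energy of ATP to slide or evict nucleosomes, and so open enhancers and promoters to transcription factors. Cells assemble 3 forms around one of the alternative ATPases SMARCA4 (BRG1) and SMARCA2 (BRM). Canonical BAF holds ARID1A or its paralog ARID1B together with a DPF protein. PBAF holds ARID2, PBRM1, BRD7 and PHF10 instead. Non-canonical BAF is built on BRD9 and BICRA or BICRAL and lacks the ARID subunits, SMARCB1 and SMARCE1. ARID1A is among the chromatin genes most often mutated in human cancers, colon carcinoma included.

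Expression was read as FPKM, a fragment count scaled by the length of the transcript and by the number of mapped fragments. Of the 30 genes, 26 had a mean of at least 1 FPKM over the 4 libraries and were tested, among 13605 tested features. Log2 changes are knockdown minus control of log2(FPKM + 1), a scale on which changes of weakly expressed genes come out too small, and adjusted p-values are those of limma with Benjamini-Hochberg adjustment over all tested features. Steps between low FPKM values put the normalizing totals at about 76000000 and 74500000 fragments in the knockdown libraries and 69000000 and 71000000 in the controls. At that depth an FPKM of 1 stands for 69.0 to 76.0 fragments per kilobase of transcript. The mitochondrial genome gave 6.04% and 5.65% of all FPKM in the knockdown libraries and 4.35% and 4.29% in the controls. Of 8 epithelial markers, 6 reached 1 FPKM in at least 1 library, while CDH17 and VIL1 stayed at or below 0.207 FPKM. The summed epithelial list was 4003 and 4160 FPKM in the knockdown libraries and 3025 and 2920 FPKM in the controls, and its members moved both ways. EPCAM, an epithelial adhesion protein, was at 147 and 141 FPKM in the knockdown libraries and at 312 and 312 FPKM in the controls (log2 change -1.11; limma adjusted p = 0.000363). The keratin genes KRT8, KRT18 and KRT19 rose, with log2 changes of 0.70, 0.42 and 0.58 (limma adjusted p = 0.000768, 0.00288 and 0.00264), while CDH1 and CDX2 did not pass (limma adjusted p = 0.214 and 0.465). The 4 calls and their directions held under every alternative that was run. The coordinates of KRT8 and KRT18 overlap in the files, so their reads could be split between them. The leukocyte markers CD3E and TYROBP were at 0 in all 4 libraries and PTPRC was at most at 0.00592 FPKM. The summed leukocyte list was 3.01 and 5.99 FPKM in the knockdown libraries and 6.76 and 5.68 FPKM in the controls, of which CD68 and, in knockdown replicate 2, LST1 made up most. The summed fibroblast list was 6.16 and 6.34 FPKM in the knockdown libraries and 4.96 and 3.69 FPKM in the controls, nearly all COL1A1, and the 4 endothelial markers stayed at or below 0.163 FPKM. The part of these shifts in the results was not tested. In bulk RNA, fewer cells expressing a gene and less RNA per cell cannot be told apart.

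**Figure D1:**
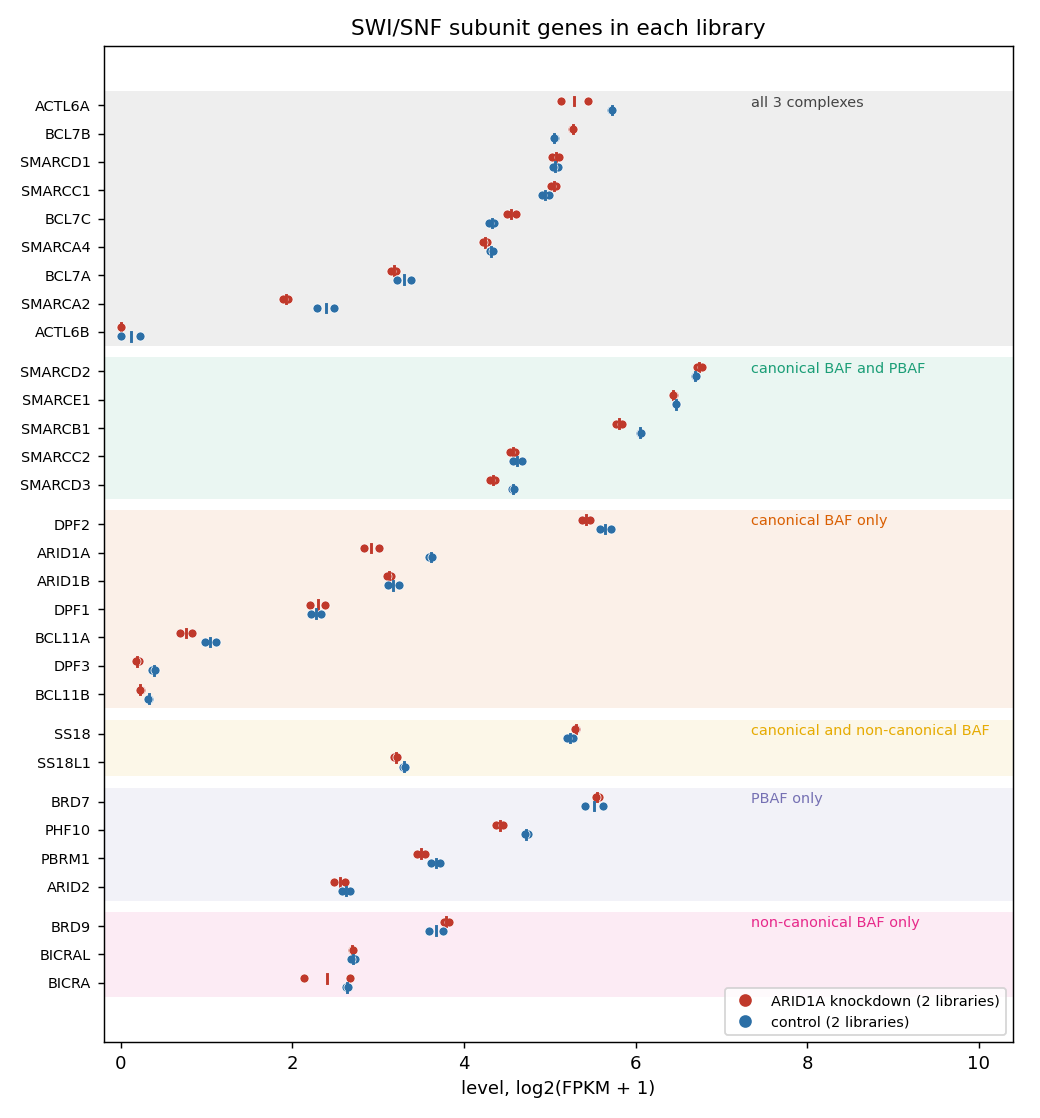
Level of each of the 30 SWI/SNF subunit genes in each library, on a log2(FPKM + 1) axis, grouped by the complexes that hold the subunit. Points are libraries (knockdown above, control below) and ticks are group means. SMARCD2 is the highest at a mean of 104 FPKM over the 4 libraries, and ACTL6B, BCL11B, DPF3 and BCL11A lie below 1 FPKM.

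The subunit genes were expressed at unequal levels, and none of the ARID subunit and ATPase genes was among the 10 highest. Over the 4 libraries, 10 genes had a mean of at least 30 FPKM, 13 lay between 5 and 30 FPKM, 3 between 1 and 5 FPKM and 4 below 1 FPKM. SMARCD2, one of the BAF60 scaffold paralogs, was at 104 and 108 FPKM in the knockdown libraries and 102 and 103 FPKM in the controls. SMARCE1 (BAF57), an HMG-box subunit, was at 86.1 and 85.4 FPKM in the knockdown libraries and 87.5 and 87.6 FPKM in the controls. SMARCB1 (SNF5), the subunit lost in rhabdoid tumours, came next with a mean of 60.1 FPKM. DPF2, BRD7 and ACTL6A followed at means of 45.5, 45.4 and 44.9 FPKM, too close to be ordered given the spread between libraries. ARID1A stood in the middle of all tested features, with 42.1% of them at or below its mean, and SMARCA2 was the lowest tested subunit gene at 3.51 FPKM. Of the dedicated subunits of non-canonical BAF, BICRA and BICRAL were at means of 4.81 and 5.51 FPKM and BRD9 at 12.3 FPKM. At or below these means lay 26.7%, 30% and 50.9% of all tested features.

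ARID1A, the target, lies on GRCh38 chromosome 1 from 26693236 to 26782104, on the plus strand. It was at 7.05 and 6.13 FPKM in the knockdown libraries and at 11.1 and 11.4 FPKM in the controls. Both knockdown libraries were below both controls, and the mean fell by 41.3%. The log2 change was -0.69 with a 95% interval of -0.89 to -0.49 (limma adjusted p = 0.00438). An exact two-sided permutation test over the libraries gave p = 0.333, and no split of 4 libraries into pairs can give a smaller one. Across all tested features, 3.35% had a log2 change as low as that of ARID1A or lower. Its fall was the largest among the 26 tested subunit genes. It was also the single subunit call that held when each library was left out in turn, with log2 changes between -0.78 and -0.60 and limma adjusted p-values between 0.0130 and 0.0439.

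**Figure D2:**
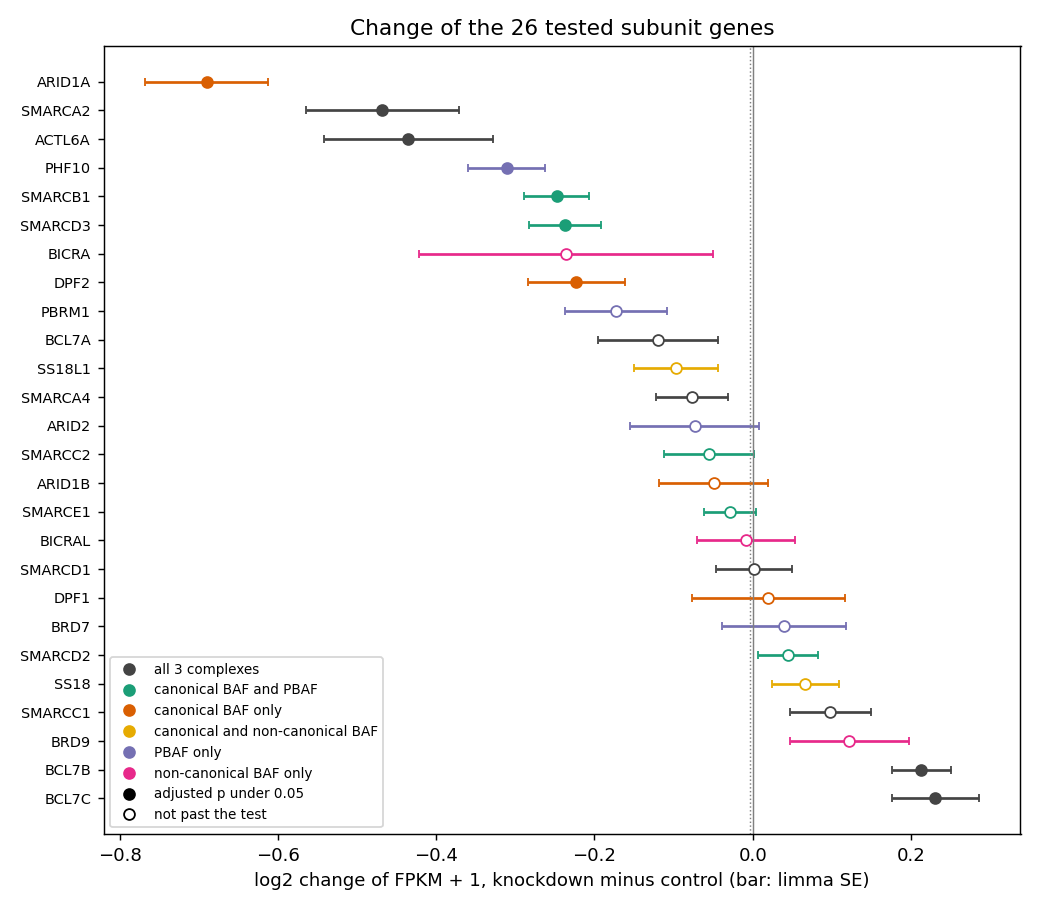
Log2 change of FPKM + 1, knockdown minus control, of the 26 tested subunit genes, with limma standard errors as bars and colours for the complexes that hold the subunit. Filled points passed an adjusted p of 0.05: 7 genes from ARID1A (-0.69) to DPF2 (-0.22) lie left of zero, and BCL7B and BCL7C (0.21 and 0.23) lie right of it. The dotted line is the median of all tested features.

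Of the 26 tested subunit genes, 7 fell, 2 rose and 17 did not pass the test, so 34.6% were called, against 37.1% of all tested features (18.9% fell and 18.2% rose). Without ARID1A the count was 8 of 25, or 32.0%. The share called was close to that of all tested features. Their median log2 change was -0.06 and their median absolute log2 change 0.11, beside -0.00299 and 0.18 over all tested features. Knockdown and control libraries did not overlap for 18 of the 26, against 72.3% of all tested features. In 12 of these the knockdown libraries were below the controls (36.5% of all tested features) and in 6 above (35.8%).

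SMARCA2, which encodes the alternative ATPase BRM, was at 2.86 and 2.70 FPKM in the knockdown libraries and at 3.90 and 4.59 FPKM in the controls. The groups did not overlap, and the gene fell by 0.47 on the log2 scale (95% interval -0.72 to -0.22; limma adjusted p = 0.0216). SMARCA4, the ATPase gene with the higher level in all 4 libraries, was at 18.2 and 17.6 FPKM in the knockdown libraries and at 18.7 and 19.2 FPKM in the controls. Its groups did not overlap either, as in 72.3% of all tested features. Its log2 change of -0.08 did not pass (95% interval -0.19 to 0.04, limma adjusted p = 0.241). Whether SMARCA2 and SMARCA4 differ in their response was not tested. ACTL6A (BAF53A), an actin-related protein that binds the ATPase, was at 42.4 and 34.0 FPKM in the knockdown libraries and at 51.4 and 52.0 FPKM in the controls. It fell by 0.44 on the log2 scale (limma adjusted p = 0.0340), with the knockdown libraries further apart from each other than the controls. Its locus shares 123 bases with MRPL47 on the opposite strand, a gene at 49.1 and 46.9 FPKM in the knockdown libraries and at 37.5 and 36.9 FPKM in the controls. The neuronal paralog ACTL6B was at 0 in both knockdown libraries and in control replicate 1, and at 0.170 FPKM in control replicate 2.

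The other subunits found in all 3 forms are the scaffold proteins SMARCC1 and SMARCD1 and the small BCL7 proteins. SMARCC1 (BAF155), around which the complex assembles, was at 32.8 and 31.2 FPKM in the knockdown libraries and at 30.7 and 28.9 FPKM in the controls, which did not pass (limma adjusted p = 0.195). SMARCD1 (BAF60A) was at 31.6 and 33.4 FPKM in the knockdown libraries and at 33.2 and 31.8 FPKM in the controls, with overlapping groups and a 95% interval of the log2 change from -0.12 to 0.13. The subunit genes that rose were both BCL7 paralogs. BCL7B was at 37.3 and 37.7 FPKM in the knockdown libraries and at 32.4 and 32.1 FPKM in the controls (log2 change 0.21, 95% interval 0.12 to 0.31; limma adjusted p = 0.0140). BCL7C was at 21.7 and 23.3 FPKM in the knockdown libraries and at 19.4 and 18.6 FPKM in the controls (log2 change 0.23, 95% interval 0.09 to 0.37; limma adjusted p = 0.0314). The groups stood apart in these genes, as in 72.3% of all tested features. BCL7A, whose groups stood apart as well, did not pass. It was at 8.27 and 7.90 FPKM in the knockdown libraries and at 8.33 and 9.44 FPKM in the controls (log2 change -0.12; limma adjusted p = 0.272). BCL7C overlaps the antisense gene MIR762HG over 19739 bases. MIR762HG was at 1.30 and 1.48 FPKM in the knockdown libraries and at 2.33 and 2.55 FPKM in the controls. No strand setting is stated in the labels, so reads where such a pair overlaps could belong to either gene.

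Among the subunits that canonical BAF and PBAF share, SMARCB1 and SMARCD3 fell. SMARCB1 was at 53.5 and 56.3 FPKM in the knockdown libraries and at 65.0 and 65.6 FPKM in the controls (log2 change -0.25, SE 0.041; limma adjusted p = 0.0123). SMARCD3 (BAF60C), a paralog known for its role in muscle and heart, was at 19.6 and 18.8 FPKM in the knockdown libraries and at 22.6 and 23.0 FPKM in the controls (log2 change -0.24, SE 0.045; limma adjusted p = 0.0174). In both genes every knockdown library was below every control, as in 36.5% of all tested features. The groups stood apart in SMARCE1 (knockdown below) and SMARCD2 (knockdown above) as well. SMARCE1, SMARCC2 and SMARCD2 did not pass, with log2 changes of -0.03, -0.06 and 0.04 and limma adjusted p-values of 0.527, 0.486 and 0.401. SMARCC2 (BAF170), the paralog of SMARCC1, was at 23.2 and 22.2 FPKM in the knockdown libraries and at 24.6 and 22.7 FPKM in the controls, with overlapping groups. Its locus shares 1138 bases with MYL6 on the opposite strand, a myosin light chain gene with a mean of 777 FPKM. MYL6 was at 866 and 886 FPKM in the knockdown libraries and at 685 and 672 FPKM in the controls.

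Of the 7 genes for subunits of canonical BAF alone, 4 were tested. ARID1A and DPF2 fell. DPF2, a paired PHD finger protein that reads acylated histone H3, was at 43.2 and 40.6 FPKM in the knockdown libraries and at 51.4 and 46.9 FPKM in the controls. Its log2 change was -0.22 (95% interval -0.38 to -0.06; limma adjusted p = 0.0449). ARID1B, which can take the place of ARID1A in the complex, was at 7.88 and 7.59 FPKM in the knockdown libraries and at 8.45 and 7.65 FPKM in the controls. The ARID1B groups overlapped, and its log2 change of -0.05 had a 95% interval of -0.23 to 0.13 (limma adjusted p = 0.605), which bounds a rise at 0.13 on this scale. DPF1, better known from neurons, was at 3.61 and 4.21 FPKM in the knockdown libraries and at 3.65 and 4.03 FPKM in the controls (limma adjusted p = 0.890). The 3 genes under the filter were low in every library. The transcription factor gene BCL11A was at 0.780 and 0.618 FPKM in the knockdown libraries and at 0.976 and 1.15 FPKM in the controls. Its paralog BCL11B was at 0.178 and 0.167 FPKM in the knockdown libraries and at 0.256 and 0.247 FPKM in the controls. DPF3 was at 0.161 and 0.127 FPKM in the knockdown libraries and at 0.288 and 0.321 FPKM in the controls. In each of these 3 genes the knockdown libraries were below the controls, and none was tested. Among all tested features the knockdown libraries were below the controls in 36.5%. The share among features under the filter was not computed.

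In PBAF, PHF10 (BAF45A), a PHD finger protein, fell. It was at 19.7 and 21.0 FPKM in the knockdown libraries and at 25.8 and 25.2 FPKM in the controls (log2 change -0.31, 95% interval -0.44 to -0.18; limma adjusted p = 0.0106). PHF10 shares 955 bases with C6orf120 on the opposite strand, which was at 14.9 and 15.6 FPKM in the knockdown libraries and at 12.1 and 12.1 FPKM in the controls. PBRM1 (BAF180), which carries a row of bromodomains, was at 10.6 and 9.94 FPKM in the knockdown libraries and at 12.2 and 11.3 FPKM in the controls. These groups did not overlap, but the log2 change of -0.17 did not pass (limma adjusted p = 0.0955). PBRM1 overlaps the opposite-strand genes GNL3, at a mean of 225 FPKM, and SMIM4, at 18.8 FPKM. ARID2 (BAF200), the ARID subunit of PBAF, was at 5.14 and 4.58 FPKM in the knockdown libraries and at 5.35 and 4.97 FPKM in the controls, with a 95% interval of the log2 change from -0.29 to 0.14. BRD7, a bromodomain protein, was at 46.5 and 45.5 FPKM in the knockdown libraries and at 48.3 and 41.4 FPKM in the controls, so that the controls enclosed the knockdown libraries (limma adjusted p = 0.727).

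In non-canonical BAF, 0 of 3 dedicated subunit genes passed limma, against 37.1% of all tested features, and 0 of 3 had an unadjusted p under 0.05, against 48.5% of all tested features. BRD9, a bromodomain protein, was at 12.6 and 13.2 FPKM in the knockdown libraries and at 12.5 and 11.0 FPKM in the controls (log2 change 0.12, 95% interval -0.07 to 0.32; limma adjusted p = 0.260). BICRAL was at 5.46 and 5.53 FPKM in the knockdown libraries and at 5.64 and 5.42 FPKM in the controls, with overlapping groups. BICRA (GLTSCR1), which marks the non-canonical form together with BRD9, was at 3.39 and 5.38 FPKM in the knockdown libraries and at 5.18 and 5.28 FPKM in the controls. One library set the value of BICRA. Its log2 change of -0.24 (limma adjusted p = 0.364) became 0.03 without knockdown replicate 1 (adjusted p = 0.786) and -0.51 without knockdown replicate 2 (adjusted p = 0.0372). SS18 and SS18L1, transcriptional coactivators that canonical and non-canonical BAF share, also did not pass. SS18, the partner of the SSX fusions of synovial sarcoma, was at 38.6 and 38.3 FPKM in the knockdown libraries and at 37.5 and 35.8 FPKM in the controls. SS18L1 was at 8.12 and 8.31 FPKM in the knockdown libraries and at 8.76 and 8.95 FPKM in the controls. The groups stood apart in both genes and in opposite directions, with log2 changes of 0.07 and -0.10 (limma adjusted p = 0.269 and 0.217).

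Counted by complex, with shared subunits counted in each, canonical BAF had 8 called genes of 19 tested (6 fell and 2 rose), or 42.1%. PBAF had 7 of 17 (5 fell and 2 rose), or 41.2%. Non-canonical BAF had 4 of 13 (2 fell and 2 rose), or 30.8%. These shares lie on either side of the 37.1% of all tested features, and the 3 counts overlap because 8 of the tested genes belong to all 3 complexes. The median log2 change was -0.06, -0.07 and -0.01 in the same order of complexes. Among genes dedicated to 1 form, 2 of 4 tested were called in canonical BAF (ARID1A included), 1 of 4 in PBAF and 0 of 3 in non-canonical BAF. Groups this small cannot be set apart from one another, and the differences between complexes were not tested.

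**Figure D3:**
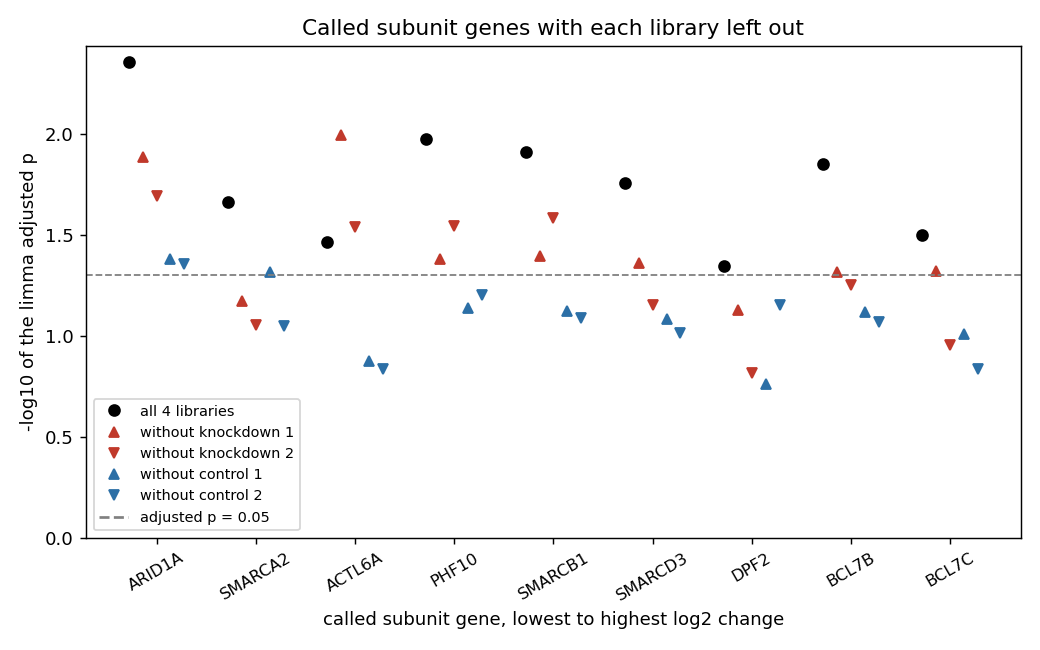
Limma adjusted p of the 9 called subunit genes, as -log10, with all 4 libraries and with each library left out. ARID1A stays above the dashed line at an adjusted p of 0.05 in all 5 fits, and DPF2 falls below it whichever library is left out.

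Each of the 8 calls beside ARID1A was lost when at least 1 of the 4 libraries was left out, which leaves 1 library in a group. Without knockdown replicate 1 and without knockdown replicate 2, 7 and 5 subunit genes were called. The 5 included BICRA. Without control replicate 1 and without control replicate 2, 2 and 1 were called. All tested features followed the same course, with 24.0% and 22.1% called without a knockdown library and 14.0% and 14.6% without a control library. The call of SMARCA2 was lost without knockdown replicate 1 (limma adjusted p = 0.0667), knockdown replicate 2 (0.0886) or control replicate 2 (0.0893). Without control replicate 1 or 2, the calls of ACTL6A (limma adjusted p = 0.133 and 0.145), SMARCB1 (0.0749 and 0.0813) and PHF10 (0.0723 and 0.0625) were lost. Those of BCL7B (limma adjusted p = 0.0560, 0.0760 and 0.0850), BCL7C (0.111, 0.0979 and 0.145) and SMARCD3 (0.0705, 0.0826 and 0.0967) were lost without knockdown replicate 2, control replicate 1 or control replicate 2. DPF2 was lost without any 1 library, at adjusted p-values between 0.0702 and 0.173. ACTL6A and DPF2 were also lost with a filter of at least 0.1 FPKM (limma adjusted p = 0.0513 and 0.0630) and without a trend in the variance (0.0564 and 0.0773), and BCL7C without a trend (0.0510). With no filter, SMARCA2, ACTL6A, BCL7C and DPF2 were lost (limma adjusted p between 0.0903 and 0.137). ACTL6A ranged from -0.59 to -0.28 in log2 change over these fits, and moved by over 1.5 times, to -0.28, without knockdown replicate 2. The 9 called genes kept their direction under every alternative that was run. Of the 17 genes that did not pass, 7 changed direction under at least 1 alternative.

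**Figure D4:**
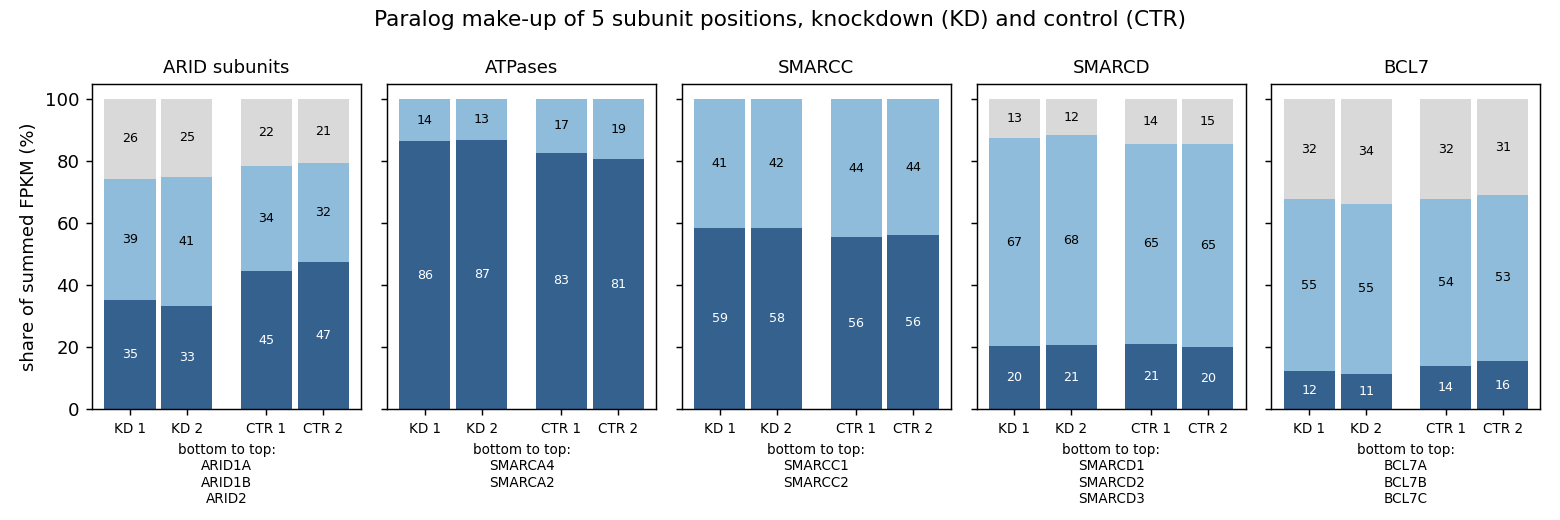
Share of each paralog in the summed FPKM of its subunit position, in percent, for each knockdown (KD) and control (CTR) library. ARID1A makes up 35.1% and 33.5% of the ARID position in the knockdown libraries and 44.6% and 47.4% in the controls, and the other positions keep their order of paralogs.

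Many SWI/SNF positions are filled by 1 of several paralogs, so the share of each paralog in the summed FPKM of its position was followed. These are shares of transcripts, and neither protein nor the make-up of the complexes was measured. FPKM is scaled to transcript length, so levels of paralogs can be set side by side. Shares within a position add up to 100%, so a lower share of 1 paralog raises the others, and no test was made. At the ARID position, ARID1A was 34.3 ± 1.18% of the sum in the knockdown libraries and 46.0 ± 1.98% in the controls (SD, n = 2). ARID1B was 40.4 ± 1.58% and 32.9 ± 1.43%, and ARID2 25.3 ± 0.406% and 21.1 ± 0.543%, in knockdown and control libraries. ARID2 was counted in this sum although it belongs to PBAF and not to canonical BAF. The order of the paralog transcripts turned. ARID1A was at 0.895 and 0.807 times the level of ARID1B in the knockdown libraries and at 1.31 and 1.48 times in the controls. The sum of ARID1A and ARID1B was 14.9 and 13.7 FPKM in the knockdown libraries and 19.5 and 19.0 FPKM in the controls.

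At the ATPase position SMARCA2 was 13.4 ± 0.220% of the sum in the knockdown libraries and 18.3 ± 1.48% in the controls, with SMARCA4 at 6.35 and 6.53 times the level of SMARCA2 in the knockdown libraries and at 4.81 and 4.18 times in the controls. At the BAF155/BAF170 position SMARCC1 was 58.5 ± 0.147% and 55.8 ± 0.404%, in knockdown and control libraries. The ratio of SMARCC1 to SMARCC2 did not overlap between groups, although neither gene passed the test by itself. With 2 libraries a group such a gap is frequent, and the levels of 72.3% of all tested features did not overlap either. At the BAF60 position SMARCD3 was 12.2 ± 0.657% in the knockdown libraries and 14.4 ± 0.150% in the controls, and the summed FPKM of the position was 155 and 161 against 158 and 158. At the BCL7 position BCL7A was 11.9 ± 0.583% in the knockdown libraries and 14.8 ± 1.31% in the controls. The BCL7 sum was 67.3 and 68.9 FPKM in the knockdown libraries and 60.1 and 60.1 FPKM in the controls. BRD7 of PBAF and BRD9 of non-canonical BAF belong to different complexes and were set together only as bromodomain proteins. BRD9 was 21.9 ± 0.871% of the sum of BRD7 and BRD9 in the knockdown libraries and 20.8 ± 0.284% in the controls. At the position of BICRA and BICRAL the groups overlapped, with BICRA at 38.3% and 49.3% in the knockdown libraries and at 47.9% and 49.3% in the controls. The summed FPKM of all 30 genes was 694 and 690 in the knockdown libraries and 737 and 720.0 in the controls.

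Promoters are shown for 4 called genes whose transcript levels moved in opposite directions, SMARCA2 and PHF10, which fell, and BCL7B and BCL7C, which rose. The sequences are the 250 bases before the RefSeq start (GRCh38.p14), 5′ to 3′ on the strand of the gene, with matches to the searched motifs in capitals. SMARCA2 is chr9:2015097-2015346 on the plus strand, PHF10 chr6:169724501-169724750 on the minus strand, BCL7B chr7:73557237-73557486 on the minus strand and BCL7C chr16:30894078-30894327 on the minus strand. All 4 windows lie inside the quantified loci, which reach further upstream, for SMARCA2 to position 1980290. A stretch past the RefSeq start was found in a GENCODE transcript for 20 of the 26 subunit genes with an entry.
SMARCA2: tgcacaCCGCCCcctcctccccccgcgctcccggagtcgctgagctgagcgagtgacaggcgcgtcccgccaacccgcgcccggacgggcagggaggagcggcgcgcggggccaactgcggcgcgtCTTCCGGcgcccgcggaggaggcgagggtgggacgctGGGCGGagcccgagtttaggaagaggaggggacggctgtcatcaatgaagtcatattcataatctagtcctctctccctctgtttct
PHF10: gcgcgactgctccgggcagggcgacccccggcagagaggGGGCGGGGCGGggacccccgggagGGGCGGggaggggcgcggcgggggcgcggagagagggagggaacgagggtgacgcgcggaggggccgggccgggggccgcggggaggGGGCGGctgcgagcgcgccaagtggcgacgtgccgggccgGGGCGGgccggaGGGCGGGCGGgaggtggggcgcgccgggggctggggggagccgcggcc
BCL7B: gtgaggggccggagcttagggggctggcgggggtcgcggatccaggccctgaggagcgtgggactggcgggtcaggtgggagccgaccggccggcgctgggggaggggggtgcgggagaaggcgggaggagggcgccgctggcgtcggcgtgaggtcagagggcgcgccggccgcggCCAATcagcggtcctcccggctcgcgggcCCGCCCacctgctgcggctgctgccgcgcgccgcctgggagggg
BCL7C: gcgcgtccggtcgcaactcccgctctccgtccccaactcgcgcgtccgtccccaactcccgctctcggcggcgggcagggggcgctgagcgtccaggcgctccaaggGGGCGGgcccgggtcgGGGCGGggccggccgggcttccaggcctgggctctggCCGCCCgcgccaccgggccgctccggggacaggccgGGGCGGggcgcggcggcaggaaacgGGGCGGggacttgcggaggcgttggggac
Both strands were searched for the CCAAT box (its letters are its name), the GC box with the letters GGGCGG, the core of ETS factor motifs with the letters CCGGAAG, the TATA box with the letters TATAAA and the E box with the letters CACGTG. PHF10 held 7 GC boxes, some of which overlap each other, BCL7C held 5, SMARCA2 2 and BCL7B 1, so the motif was present in genes that fell and in genes that rose. Among the other genes that fell and had an entry, ARID1A held 3 GC boxes, and SMARCB1, SMARCD3 and DPF2 held 0. SMARCA2 also held 1 ETS core and BCL7B 1 CCAAT box, neither of which overlapped a GC box. Of the 26 subunit genes with an entry in the RefSeq table, 61.5% held a GC box, against 42.6% of all 35116 promoters of the same length. The CCAAT box was found in 46.2% of the subunit promoters against 32.0%, the TATA box in 3.85% against 10.7%, the ETS core in 3.85% against 8.52% and the E box in 7.69% against 6.34%. The median GC content was 66.6% against 58.0%, with 27 against 11 CpG sites, and the comparison set includes promoters of noncoding genes. ACTL6A, SMARCC1, SMARCC2 and ARID2 had no entry.

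The other ATP-dependent remodellers and the remaining ARID domain genes were set beside SWI/SNF by lists drawn up by gene family. These lists were chosen with earlier results of these data known. Of 62 tested genes in 4 lists, 16 rose and 5 fell, so 33.9% were called. Of all tested features 37.1% were called (18.2% rose and 18.9% fell). Among 13 ISWI genes, which space nucleosomes, 5 rose and 0 fell. BAZ2A, a subunit of the nucleolar remodelling complex, was at 22.6 and 20.7 FPKM in the knockdown libraries and at 16.3 and 16.0 FPKM in the controls, and BAZ1A (ACF1) at 11.2 and 11.3 against 8.79 and 8.55 FPKM. Of 19 CHD and NuRD genes, 3 rose and 1 fell, with GATAD2A, a NuRD subunit, at 62.9 and 65.0 FPKM in the knockdown libraries and at 50.1 and 46.9 FPKM in the controls, and the helicase gene CHD1L at 26.9 and 26.7 against 21.1 and 20.5 FPKM. Of 20 INO80, SRCAP and EP400 genes, 4 rose and 4 fell. The INO80 subunit genes ACTR5 and TFPT moved apart, with ACTR5 at 11.7 and 11.6 against 9.66 and 8.55 FPKM (rose) and TFPT at 3.24 and 3.51 against 4.67 and 4.60 FPKM (fell), knockdown against control. Of 10 tested ARID domain genes outside SWI/SNF, 4 rose and 0 fell. The largest of these changes were those of the histone demethylase gene KDM5A, at 8.92 and 8.12 FPKM in the knockdown libraries and at 4.84 and 5.64 FPKM in the controls (log2 change 0.61; limma adjusted p = 0.00914), and of ARID5B, at 5.71 and 5.62 against 3.36 and 3.51 FPKM (log2 change 0.59; limma adjusted p = 0.00464). KDM5A missed the threshold without control replicate 1 (limma adjusted p = 0.0501) and with no filter (0.0529). BAZ2A was lost without control replicate 1 or 2 (limma adjusted p = 0.0580 and 0.0634), and BAZ1A without these (0.0531 and 0.0619) or knockdown replicate 2 (0.0520). ACTR5 was lost without knockdown replicate 1 or 2 or control replicate 2 (limma adjusted p between 0.0916 and 0.0957), and TFPT without any 1 library (0.0556 to 0.0948). With no filter, ACTR5 and TFPT were lost as well (limma adjusted p = 0.0894 and 0.0786). The median log2 change was 0.05 over the 4 lists and -0.06 over the SWI/SNF subunit genes, and this difference was not tested.

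Transcripts of related sequence could share reads with these genes. The files held 14 pseudogene features named after a subunit gene (of BRD7, BRD9 and SMARCE1), and 0 of them had a mean of at least 1 FPKM. Of the 30 subunit loci, 9 overlapped another feature at a mean of at least 1 FPKM. SMARCE1 shares 21299 bases with AC073508.2 on its own strand, a feature at 1.68 and 2.05 FPKM in the knockdown libraries and at 1.79 and 1.23 FPKM in the controls.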

How the data were processed

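Per the labels' protocols, libraries of total RNA from HCT116 cells (2 ARID1A knockdown, 2 control) were prepared with the NEBNext Ultra kit. The tables deposited by the authors hold FPKM, 1 table for each library, per the file headers. STAR, Cufflinks and build GRCh38 are named in the submitters' processing notes. Their versions and roles, the annotation release and the strand setting are not stated.

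Each table had 60811 rows. Second copies of pseudoautosomal genes (45) were dropped and 2347 values under 1e-09 set to 0. Starts are printed 1-based. The change was fitted on log2(FPKM + 1) for features with a mean of at least 1 FPKM, with limma 3.58.1 in R 4.3.3 (lmFit, eBayes with a trend), and called at a Benjamini-Hochberg adjusted p under 0.05. The fit has 2 residual and 2.79 prior degrees of freedom. In simulated data of 13605 genes, of which 200 were changed in each run, it recovered 2.4% of changes of 0.25, 36.4% at 0.5, 74.8% at 1 and 92.8% at 2 on the log2 scale. In the data 37.1% of tested features were called. The adjusted threshold is looser when more genes change, so these shares are not the power of the fit in the data. Depth was estimated from genes with 1 GENCODE 29 transcript of at least 1500 bases at an identical locus, where 84.0% to 87.3% of values up to 8 fragments were whole within 0.1. Members, complex classes and comparison lists were chosen with earlier results of these data known. Every member is named, and from each comparison list up to 2 called genes by absolute log2 change. Alternatives were other pseudocounts, filters and scalings, no trend, a replicate block and each library left out.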

Additional observations from a re-analysis of the deposited data

How the results depend on the processing

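Scaling, quantile normalization and a pseudocount of 0.1 each left 9 subunit genes called, and those 9 were the same genes. With no filter, 5 subunit genes, 2786 features in all (of 29031 tested) and 8 genes of the comparison lists were called; the cause was not tested. Leaving out each library in turn gave 1 to 7 called subunit genes, 1900 to 3259 called features and 5 to 12 called genes of the comparison lists; with 1 library in a group, that library is assumed to vary like the others. In the labels, same-numbered libraries share only a number. Their deviations from the group means had a correlation of -0.00993 over 13605 genes, which cannot tell whether they shared a culture or preparation. A replicate block gave 8 called subunit genes, 4126 called features and 16 called genes of the comparison lists, and BCL7C was lost (adjusted p = 0.0610).

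Direction turned only in genes that did not pass. BICRAL went to 0.000988 under median scaling and 0.055 under quantile normalization, and SMARCD1 to -0.018 under quantile normalization. With each library left out, log2 changes ran from -0.034 to 0.017 for BICRAL, -0.036 to 0.039 for SMARCD1, -0.51 to 0.034 for BICRA, -0.069 to 0.11 for DPF1, -0.11 to 0.0014 for SMARCC2, -0.11 to 0.014 for ARID1B and -0.068 to 0.15 for BRD7; the cause was not tested. With each library left out, the difference in the ARID1A share of its position ran from -13.1 to -10.3 percentage points; with 2 libraries a group such a move is always smaller than the SD of that group, so it says nothing about stability. Summing all rows of a symbol changed no share, as each symbol had 1 row.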
